A study of Mus musculus with 7 samples.

Results

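The genes described here encode enzymes of fatty acid, phospholipid and sphingolipid synthesis and a transcription factor that controls many of the fatty acid enzymes. The set was given as a list of 32 gene symbols, 12 for fatty acids, 11 for phospholipids and 9 for sphingolipids, and was taken out of the 21515 genes that the array names with 1 symbol per probe. For 30 of the 32 such a probe was found. Cept1, a phosphotransferase of the last step to phosphatidylcholine and phosphatidylethanolamine, had a probe shared with the neighbouring gene Dram2 and was not used, and Scd2, a stearoyl-CoA desaturase, was not analysed here. Me1 and Chpt1 lay under the limit for dim genes (3.48 on the log2 scale, the 25th percentile of all genes), so 28 members were tested among 16136 genes.

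RNA came from 3 samples of RRas2-deficient and 4 samples of wild-type (WT) mice, and all 7 were sorted from spleen as germinal centre B cells (B220+CD95+GL7+) 7 days after immunization with sheep erythrocytes. The deficient mice are labelled RRas2-deficient in the genotype and the title and Rras-deficient in the description. The labels call the samples of a group biological replicates, and they do not give the allele, its target cells, the age or the number of animals behind a sample. Each sample was read on 1 whole-transcript Affymetrix array, and a value is a log2 intensity, so that a difference of 1 is a 2-fold change of the signal. The number of arrays limits the precision, and less RNA per cell cannot be told apart from fewer cells that express a gene.

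Fatty acid synthesis starts from citrate, which Acly cleaves to acetyl-CoA in the cytosol; Acaca and Fasn turn that into palmitate, and elongases and desaturases then lengthen and unsaturate the chain. The acyl chains are joined to a glycerol backbone to make phospholipids, the bulk of every cell membrane, or to serine to make ceramide, from which sphingomyelin and glycosphingolipids are built. The transcription factor SREBP, encoded in part by Srebf1, controls many of the fatty acid enzymes. Germinal centre B cells divide fast and so have to make membrane, and they are also known for burning fatty acids as fuel.

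The arrays formed a wider and a narrower set by the interquartile range of their values, and each set held both genotypes. RRas2-deficient replicates 1 and 3 and WT replicates 3 and 4 had ranges of 2.69 to 2.91, and RRas2-deficient replicate 2 and WT replicates 1 and 2 had ranges of 2.37 to 2.49. The labels name no batch, so the set was used as a block beside the plain comparison. Rras2, the targeted gene, read 6.93, 6.68 and 7.12 in RRas2-deficient and 7.13, 7.41, 8.66 and 8.39 in WT replicates, with deficient replicate 3 just under WT replicate 1 and no overlap, and its difference of -0.99 ± 0.39 (log2, SE) did not pass the test (limma adjusted p = 1.00; with the set as a block -1.13 ± 0.20, adjusted p = 0.296). Whether the probe covers the altered part of Rras2 is not known here, so it may not check the labels. The defining B cell and germinal centre markers were bright, with list means of 9.10 to 10.03 on the deficient arrays and 9.19 to 10.35 on the WT arrays (9 of 12 markers measured), while T cell markers averaged 4.10 to 4.27 and 4.04 to 4.80 (7 of 8), neutrophil markers 3.46 to 3.63 and 3.37 to 3.72 (8 of 8), and macrophage and monocyte markers 4.44 to 5.12 and 4.44 to 4.85 (11 of 12). WT replicate 3 stood apart in sex-linked genes, with Xist at 6.61 against 9.43 to 10.29 on the other 6 arrays and Eif2s3y at 6.75 against 3.09 to 4.40.

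None of the 28 tested members passed an adjusted p of 0.05 between RRas2-deficient and WT cells in limma (0 higher, 0 lower, lowest adjusted p = 1.00), and none had an unadjusted p under 0.05. Over all genes tested 0.0124% were called, 0.818% had an unadjusted p under 0.05, and 0.0124% were called as lower. In 0 of the 28 did the genotypes fail to overlap, against 1.08% of all genes. Means were lower in the deficient cells for 20 of the 30 measured members and higher for 10, with a median log2 difference of -0.065, while 48.4% of all genes tested had a lower mean and their median was 0.0049. Of the 8068 tested genes above the median intensity, called the brighter genes here, 53.8% had a lower mean, and 24 of the 28 members are among them. The lowest differences were those of the ceramide synthase gene Cers6 (-0.74) and the elongase gene Elovl6 (-0.34) and the highest that of the dihydroceramide desaturase gene Degs1 (0.34), and the other 27 measured members lay between -0.31 and 0.22.

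How far these arrays could resolve a change differed between members. The 95% interval of the difference lay within 0.5 log2 units of 0 for 9 members, among them Fasn (-0.40 to 0.36), Srebf1 (-0.33 to 0.47), Agpat3 (-0.32 to 0.41) and Pcyt2 (-0.33 to 0.17). Among the 9, Pcyt1a, Sgms1, Lpin1, Chka, Sgms2 and Pcyt2 had equal values on at least 2 arrays. Repeated values lower the spread behind an interval, so these intervals may overstate the precision. For 7 members the interval reached beyond 1 unit in at least 1 direction, so a 2-fold change lay inside it, as for Fads1 (-1.45 to 1.54) and Fads2 (-1.51 to 1.20). With the set as a block the standard error was smaller for 27 of the 28, with a median of 0.11 against 0.20 without it. The block was drawn from the spread of these same values, so smaller errors of bright genes follow partly from that choice. In the blocked model 22 of 30 measured members were lower in the deficient cells, with a median of -0.10, beside 51% of all genes tested and 65.5% of the brighter ones. Elovl5, Elovl6, Sptlc2 and Cers5, all lower, had an unadjusted p under 0.05, which is 4 of 28 where 10.1% of all genes and 13.3% of the brighter ones did, and none passed (lowest limma adjusted p = 0.337). A covariate for the interquartile range in place of the block gave 18 of 30 measured members lower, with a median of -0.030. The differences were then -0.16 for Elovl5, -0.25 for Elovl6, -0.17 for Sptlc2 and -0.091 for Cers5. The block left the spread uneven within the wider set, with ranges of 2.73 and 2.69 on deficient and 2.91 and 2.78 on WT arrays.

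**Figure D1:**
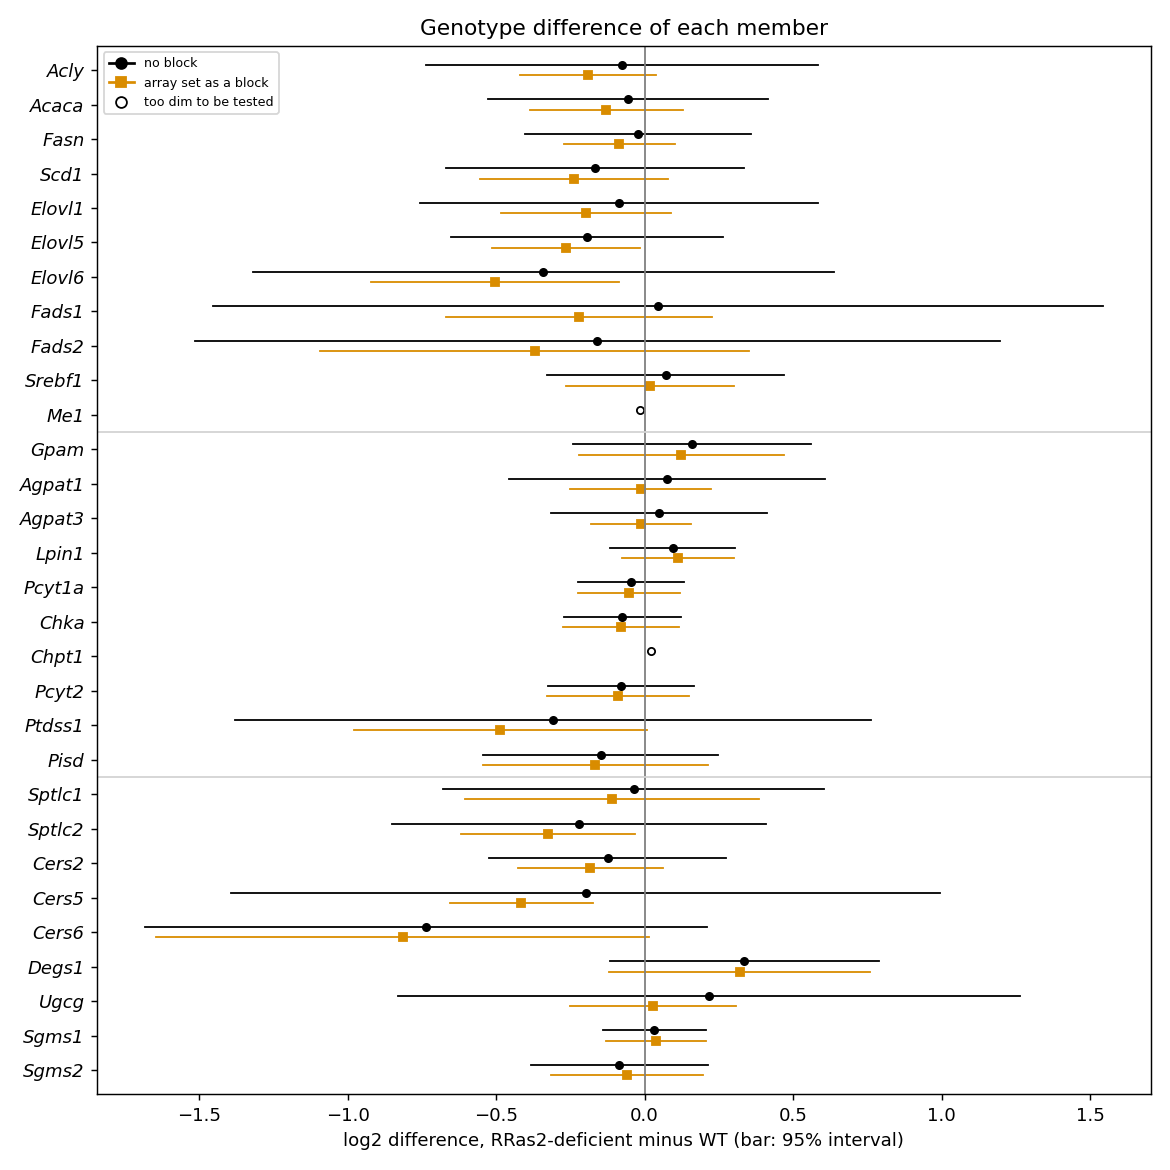
Log2 difference (RRas2-deficient minus WT, x axis) of each measured member (y axis, grouped from top to bottom as fatty acid, phospholipid and sphingolipid genes), with 95% intervals from limma without a block (black) and with the array set as a block (orange). Every black interval crosses 0, Cers6 lies farthest left at -0.74, and the blocked intervals are narrower for 27 of 28 tested members.

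The enzymes that build palmitate had nearly the same means in both genotypes. Acly, which supplies cytosolic acetyl-CoA, read 8.60, 8.13 and 8.76 in RRas2-deficient replicates 1 to 3, against 8.10, 8.27, 9.02 and 8.90 in WT replicates 1 to 4. Acaca, the acetyl-CoA carboxylase that makes malonyl-CoA, read 6.10, 5.88 and 6.31 in deficient and 5.86, 5.93, 6.57 and 6.25 in WT cells. For Fasn, the fatty acid synthase itself, the deficient arrays read 8.372, 8.061 and 8.354 and the WT arrays 8.003, 8.155, 8.521 and 8.465. In all 3 genes the lowest deficient array was replicate 2, the highest WT array was replicate 3, and every deficient value lay inside the WT span. The differences were -0.076 ± 0.28 for Acly, -0.056 ± 0.20 for Acaca and -0.024 ± 0.16 for Fasn (log2, SE). In the blocked model they were -0.19 ± 0.10, -0.13 ± 0.11 and -0.085 ± 0.079 (lowest limma adjusted p = 0.565). The interquartile range as a covariate gave -0.019, -0.017 and 0.0079. Without the block the 95% interval of Acly, -0.74 to 0.58, leaves room for a larger difference in either direction. Srebf1 read 7.45, 6.83 and 7.18 in deficient and 6.84, 7.13, 7.18 and 7.18 in WT cells, a difference of 0.071 ± 0.17 with overlapping groups. Me1, the malic enzyme that yields NADPH for synthesis, was dim on all 7 arrays, at 2.88 to 3.01 in deficient and 2.82 to 3.08 in WT cells.

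Among the enzymes that lengthen and desaturate the chain, the elongase gene Elovl6, which converts palmitate to stearate, had the largest difference in means. It read 5.56, 4.86 and 5.52 in deficient cells and 5.10, 5.03, 6.57 and 5.92 in WT cells. WT replicate 3 was the highest array and RRas2-deficient replicate 2 the lowest, and the groups overlapped. The difference was -0.34 ± 0.41 (limma unadjusted p = 0.435), and it was -0.035 without WT replicate 3 and -0.50 ± 0.18 with the array set as a block (limma adjusted p = 0.426). Elovl5, which elongates polyunsaturated chains, read 7.84, 7.38 and 7.84 in deficient and 7.51, 7.84, 8.19 and 7.98 in WT cells, with deficient replicate 2 under all 4 WT arrays. Its difference was -0.19 ± 0.19, and -0.26 ± 0.11 in the blocked model (limma adjusted p = 0.470). It was -0.041 without RRas2-deficient replicate 2 and -0.091 without WT replicate 3. Elovl1, which makes very long saturated chains used in sphingolipids, read 7.02, 6.47 and 6.82 in deficient and 6.52, 6.37, 7.14 and 7.39 in WT cells (difference -0.086 ± 0.28). Scd1, the stearoyl-CoA desaturase that makes monounsaturated chains, read 9.42, 9.02 and 9.08 in deficient cells and 8.90, 9.23, 9.64 and 9.60 in WT cells. Every deficient value lay within the WT span of 8.90 to 9.64, and the difference was -0.17 ± 0.21.

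Fads1 and Fads2, neighbouring genes on chromosome 19 for the desaturases of polyunsaturated fatty acids, varied more between arrays than any other fatty acid gene. Fads1 read 7.07, 5.89 and 7.09 in deficient and 5.47, 5.95, 7.77 and 7.36 in WT cells. Fads2 read 6.61, 5.64 and 6.27 in deficient and 5.67, 5.42, 7.72 and 6.52 in WT cells. In both genes the 4 wider arrays lay above the 3 narrower ones whatever the genotype, and WT replicate 3 was the highest. The genotype difference was 0.045 ± 0.63 for Fads1 and -0.16 ± 0.57 for Fads2. Within the wider arrays alone the deficient means differed by -0.48 for Fads1 and -0.68 for Fads2, and within the narrower arrays by 0.18 and 0.10, so the sign was not shared by the sets. Without WT replicate 3 the difference of Fads2 was 0.30 in place of -0.16.

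**Figure D2:**
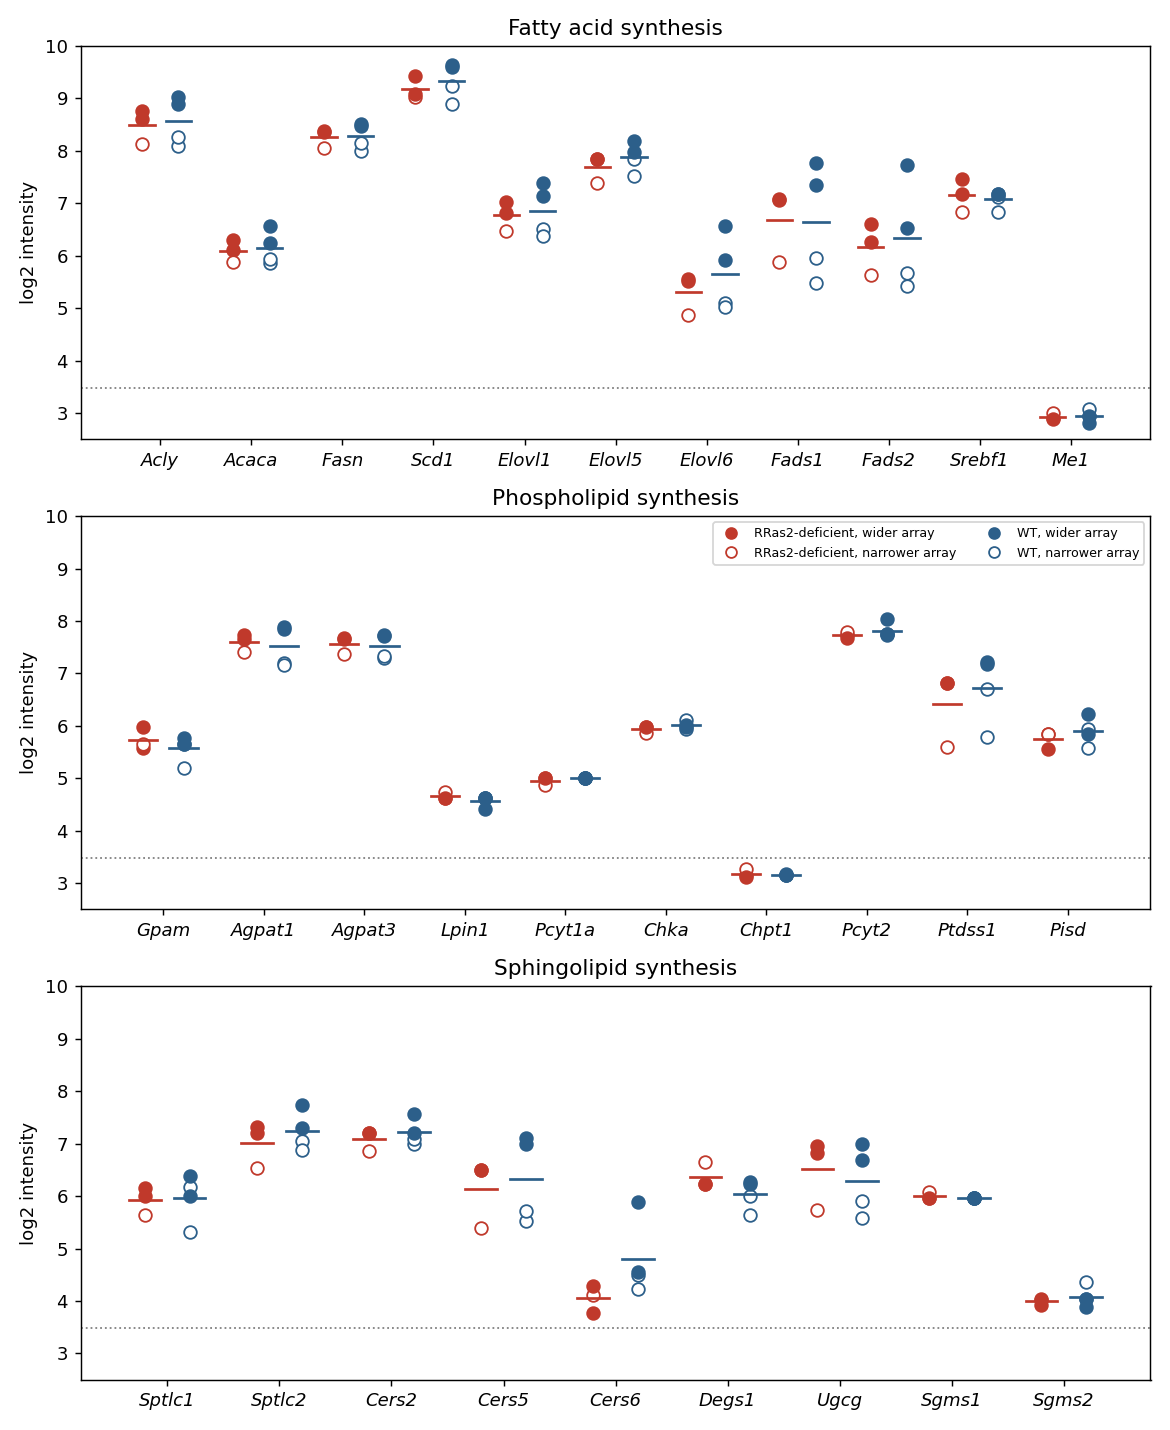
Log2 intensity (y axis) of each measured member (x axis) on each array, with RRas2-deficient samples in red left of WT samples in blue, filled points for the wider and open points for the narrower arrays, and a horizontal bar for each group mean. The dotted line is the limit for dim genes at 3.48. In Fads1, Fads2, Cers5 and Ugcg the filled points of both genotypes sit above the open ones, while Me1 and Chpt1 lie under the dotted line.

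The phospholipid genes had differences from -0.31 (Ptdss1) to 0.16 (Gpam), 5 of 10 measured members higher and 5 lower, with a median of -0.012. Gpam, the mitochondrial acyltransferase that starts glycerolipid assembly, read 5.58, 5.66 and 5.97 in deficient and 5.66, 5.21, 5.78 and 5.66 in WT cells (difference 0.16 ± 0.17). Its highest array was deficient replicate 3 and its lowest WT replicate 2, and the remaining values overlapped. Agpat1 and Agpat3, which add the next acyl chain to give phosphatidic acid, had means of 7.60 ± 0.18 and 7.57 ± 0.18 in deficient cells (SD, n = 3), against 7.52 ± 0.40 and 7.52 ± 0.23 in WT cells (SD, n = 4). Both were lower on every narrower array than on every wider one. Lpin1, a phosphatidic acid phosphatase that forms diacylglycerol, read 4.63, 4.74 and 4.62 in deficient and 4.62, 4.62, 4.62 and 4.42 in WT cells (difference 0.095 ± 0.088).

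In the choline branch, which makes phosphatidylcholine, the levels were flat. Chka, the choline kinase, read 5.97, 5.87 and 5.97 in deficient and 5.94, 6.12, 5.97 and 6.02 in WT cells (difference -0.075 ± 0.083). Pcyt1a, the CTP-using enzyme that limits the rate of this branch, had the same value of 5.004 on 6 of 7 arrays and 4.869 on deficient replicate 2. Chpt1, which completes phosphatidylcholine, was dim at 3.11 to 3.27 in deficient and 3.15 to 3.18 in WT cells. Equal values to 6 decimals on at least 4 arrays occurred in 4 members (Lpin1, Pcyt1a, Chpt1 and Sgms1), which is 13.3% of the 30, beside 12.3% of all 21515 genes measured. The deposited values are summaries over the probes of a gene, and for such members the difference between genotypes rests on the 1 to 3 arrays that departed from the shared value. Equal values on at least 2 arrays occurred in 13 of the 30 members (43.3%), beside 52.4% of all genes measured. Elovl5 and Degs1 had equal values on 3 arrays, and Cers5 on 2.

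Pcyt2, the matching enzyme of the ethanolamine branch, read 7.74, 7.79 and 7.68 in deficient and 7.75, 7.75, 8.04 and 7.74 in WT cells. All values but that of WT replicate 3 lay between 7.68 and 7.79, and the difference was -0.080 ± 0.10. Ptdss1, which exchanges choline for serine to give phosphatidylserine, varied most among the phospholipid genes. It read 6.82, 5.60 and 6.82 in deficient and 5.79, 6.71, 7.18 and 7.21 in WT cells, with deficient replicate 2 and WT replicate 1 far under the others. The difference of -0.31 ± 0.45 (limma unadjusted p = 0.515) was 0.097 without RRas2-deficient replicate 2 and -0.49 ± 0.21 with the array set as a block (limma adjusted p = 0.498). Pisd, the mitochondrial decarboxylase that turns phosphatidylserine into phosphatidylethanolamine, read 5.84, 5.84 and 5.56 in deficient and 5.57, 5.94, 6.22 and 5.84 in WT cells (difference -0.15 ± 0.17), again with WT replicate 3 on top.

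The sphingolipid genes included the largest differences of either sign, 6 of 9 being lower and 3 higher with a median of -0.086. The subunits of serine palmitoyltransferase, the committing step, had lower means without clear separation. Sptlc1 read 5.63 to 6.16 in deficient and 5.31 to 6.38 in WT cells (difference -0.037 ± 0.27). Sptlc2, the catalytic subunit, read 7.21, 6.54 and 7.32 in deficient and 7.05, 6.89, 7.73 and 7.30 in WT cells. Deficient replicate 2 was the lowest and WT replicate 3 the highest, and the difference of -0.22 ± 0.26 was -0.32 ± 0.12 with the block (limma adjusted p = 0.456), 0.020 without RRas2-deficient replicate 2 and -0.057 without WT replicate 3.

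Ceramide synthases attach an acyl chain to the sphingoid base, Cers2 favouring very long chains and Cers5 and Cers6 palmitate. Cers6 read 3.77, 4.12 and 4.29 in deficient cells and 4.23, 4.50, 5.89 and 4.56 in WT cells. WT replicate 3 stood well above the next array, while WT replicate 1 lay under deficient replicate 3, so the groups overlapped without it too. The means were 4.06 ± 0.26 in deficient cells (SD, n = 3) and 4.80 ± 0.74 in WT cells (SD, n = 4), a difference of -0.74 ± 0.40 or 1.67-fold lower (limma unadjusted p = 0.108, adjusted p = 1.00). Without WT replicate 3 it was -0.37, and the other leave-one-out values ran from -0.92 to -0.59. Cers5 read 6.506, 5.399 and 6.506 in deficient and 5.520, 5.719, 7.102 and 6.998 in WT cells. In the wider arrays both deficient values lay under both WT values, and in the narrower arrays the 1 deficient value lay under both WT values as well. The 2 deficient values on the wider arrays are equal, so they show no spread between these arrays. The difference was -0.20 ± 0.50, and -0.41 ± 0.10 with the array set as a block (limma unadjusted p = 0.00457, adjusted p = 0.337). Cers2 read 7.21, 6.86 and 7.20 in deficient and 6.99, 7.08, 7.57 and 7.20 in WT cells (difference -0.12 ± 0.17), and its second, dimmer probe differed by 0.17.

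Degs1, which introduces the double bond that turns dihydroceramide into ceramide, was the member with the largest higher mean. It read 6.23, 6.66 and 6.23 in deficient and 5.65, 5.99, 6.28 and 6.23 in WT cells. Deficient replicate 2 was the highest and WT replicate 1 the lowest, and the other deficient values fell within the WT span. The means were 6.37 ± 0.24 in deficient cells (SD, n = 3) and 6.04 ± 0.29 in WT cells (SD, n = 4), a difference of 0.34 ± 0.19 (limma unadjusted p = 0.122, adjusted p = 1.00). It was 0.84 in the narrower arrays, -0.022 in the wider ones and 0.19 without RRas2-deficient replicate 2. Ugcg, which glucosylates ceramide and opens the way to glycosphingolipids, read 6.96, 5.74 and 6.83 in deficient and 5.58, 5.91, 6.99 and 6.69 in WT cells. Its values followed the array sets, and the difference of 0.22 ± 0.44 was 0.029 ± 0.12 with the block. Of the sphingomyelin synthase genes, Sgms1 read 5.96 to 6.07 in deficient cells against 5.97 in all WT arrays, with the same value on 5 of 7 arrays. Sgms2 read 3.92 to 4.03 in deficient cells against 3.89 to 4.36 in WT cells (difference -0.086 ± 0.13).

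Many of these genes split by array set within both genotypes. In 15 of the 28 tested members all 4 wider arrays lay above all 3 narrower ones, and in 0 did they lie below. Of all genes tested 26.9% had all wider arrays above and 13.6% all below, and of the brighter genes 49.2% and 7.36%. All 15 are among the 24 members that belong to the brighter genes, which is 62.5% of them beside that 49.2%. By class it was 8 of 10 fatty acid, 3 of 9 phospholipid and 4 of 9 sphingolipid genes. Because the sets were parted by the spread of all values, bright genes are high on the wider arrays partly by construction, and these counts are given with no test. The mean level of the fatty acid genes was 7.00, 6.47 and 6.92 in RRas2-deficient replicates 1 to 3, against 6.45, 6.58, 7.38 and 7.14 in WT replicates 1 to 4. That of the sphingolipid genes was 5.99, 5.67 and 6.04 in RRas2-deficient replicates 1 to 3, against 5.63, 5.81, 6.42 and 6.11 in WT replicates 1 to 4, and that of the phospholipid genes 6.01, 5.84 and 6.01 in RRas2-deficient replicates 1 to 3, against 5.80, 5.90, 6.16 and 6.06 in WT replicates 1 to 4. On the wider arrays both WT means exceeded both deficient means in all 3 classes, and the same held for the brighter genes as a whole (6.97 and 6.98 in deficient, 7.14 and 7.03 in WT cells), for the cholesterol synthesis and fatty acid oxidation genes and for the B cell markers. The means over the B cell and germinal centre markers moved with the sets as well, at 10.02 to 10.35 on the wider and 9.10 to 9.25 on the narrower arrays, with Rgs13, a germinal centre regulator of G protein signalling, at 8.59, 5.86 and 8.60 in deficient and 6.44, 6.40, 9.59 and 8.91 in WT cells. Markers of 3 other cell types had the opposite order, T cells with 4.04 to 4.23 on the wider and 4.27 to 4.80 on the narrower arrays, neutrophils with 3.37 to 3.49 and 3.55 to 3.72, and erythroid cells with 4.09 to 4.38 and 4.43 to 4.52 (2 of 8 measured). The means of these 3 lists lie well under those of the brighter genes. Array medians had the same order, at 4.34 to 4.41 on the wider and 4.49 to 4.54 on the narrower arrays. Genes of low level are thus low on the wider arrays partly by construction. The T cell mean of 4.80 was that of WT replicate 1 alone. On the narrower arrays WT replicate 2 and deficient replicate 2 it was 4.30 and 4.27. Plasma cell markers had lower means in deficient cells for 6 of 6 genes (median -0.22, 0 with an unadjusted p under 0.05), with list means of 6.26 to 6.63 on the deficient and 6.57 to 6.79 on the WT arrays, and macrophage and monocyte markers had higher means for 9 of 11 (median 0.16). Means were lower for 6 of 7 T cell (median -0.12), 5 of 8 neutrophil and 5 of 9 B cell and germinal centre markers. Of the follicular dendritic and stromal markers 5 of 8 had higher means (median 0.047), and of the erythroid markers 1 of 2. Of all genes tested 48.4% had a lower mean. The part of these cell types in the members' values was not tested.

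**Figure D3:**
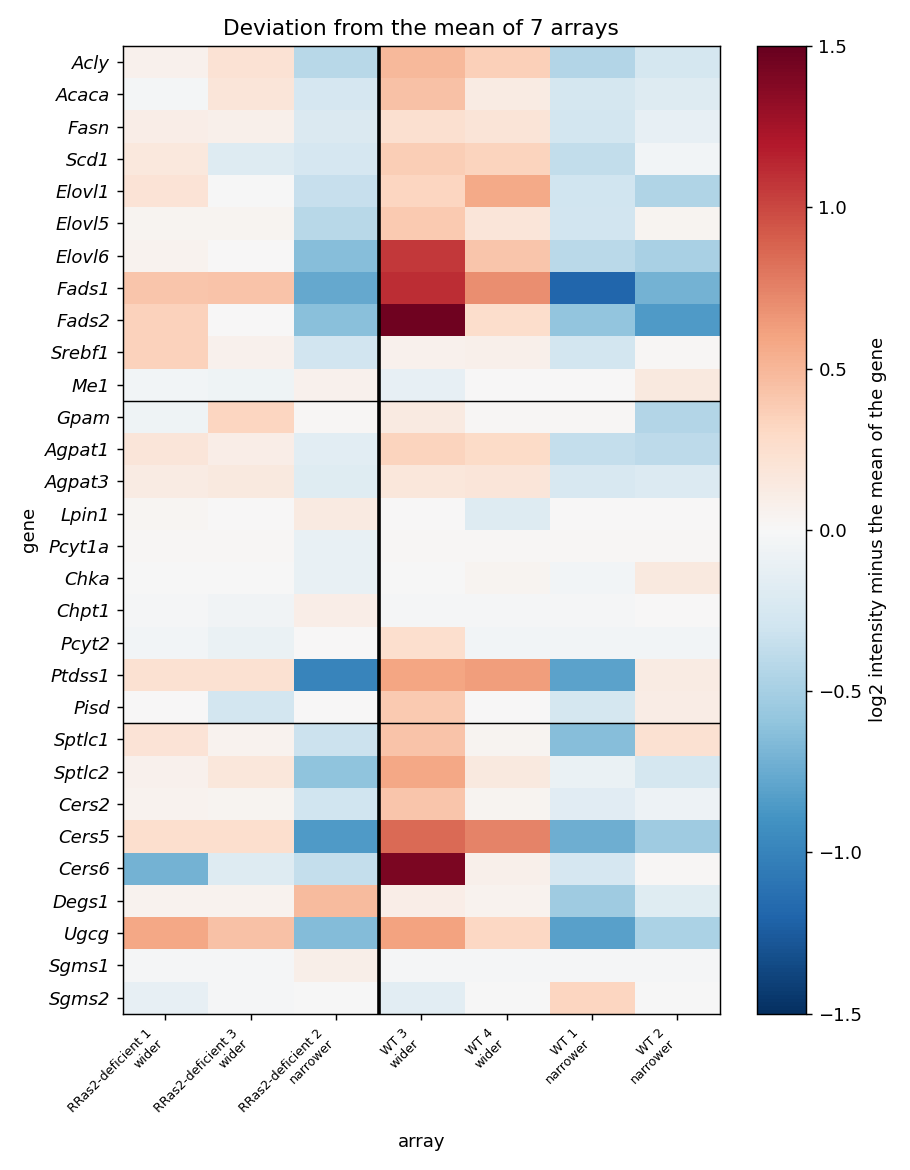
Log2 intensity minus the mean of the gene over 7 arrays (colour, red above and blue below) for each measured member (rows) and array (columns, RRas2-deficient left of the black line, wider arrays before narrower ones within each genotype). Fads1, Cers5 and Ugcg are red on the wider and blue on the narrower arrays of both genotypes, Fads2 is so except for deficient replicate 3, which lies at its mean, and WT replicate 3 holds the highest value of Fads2 (7.72) and Cers6 (5.89).

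The 6 members that parted the sets most were Fads1 (1.55, wider minus narrower mean), Cers5 (1.23), Fads2 (1.21), Ugcg (1.13), Ptdss1 (0.97) and Elovl6 (0.90). Promoters of the 4 among them with a single entry are shown (RefSeq, GRCm38.p6, 300 bases from 250 before to 50 after the start, in the sense of the gene). These genes were picked by their difference between the sets, so their common order over the arrays follows from that choice. Shared control of them was not tested. Capitals mark matches, on either strand, to 4 motifs: CCAAT of NF-Y, GGGCGG of Sp1, the E-box CACGTG, and TCACNCC from the sterol regulatory element that SREBP binds. Cers5 lies at chr15:99772466-99772765, minus strand, Fads2 at chr19:10101454-10101753, minus strand, Ugcg at chr4:59189300-59189599, plus strand and Elovl6 at chr3:129532136-129532435, plus strand.
Cers5: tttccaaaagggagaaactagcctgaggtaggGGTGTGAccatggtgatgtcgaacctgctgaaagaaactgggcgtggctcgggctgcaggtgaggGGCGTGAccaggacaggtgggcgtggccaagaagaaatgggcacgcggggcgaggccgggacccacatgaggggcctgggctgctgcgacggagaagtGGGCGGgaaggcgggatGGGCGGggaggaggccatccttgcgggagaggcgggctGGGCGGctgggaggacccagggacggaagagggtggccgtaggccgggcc
Fads2: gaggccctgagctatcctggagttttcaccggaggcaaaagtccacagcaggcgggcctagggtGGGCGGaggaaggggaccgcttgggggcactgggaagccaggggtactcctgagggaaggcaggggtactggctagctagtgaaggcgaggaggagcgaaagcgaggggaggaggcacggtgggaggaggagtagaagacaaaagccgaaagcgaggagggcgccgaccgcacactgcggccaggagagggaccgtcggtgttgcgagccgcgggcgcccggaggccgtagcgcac
Ugcg: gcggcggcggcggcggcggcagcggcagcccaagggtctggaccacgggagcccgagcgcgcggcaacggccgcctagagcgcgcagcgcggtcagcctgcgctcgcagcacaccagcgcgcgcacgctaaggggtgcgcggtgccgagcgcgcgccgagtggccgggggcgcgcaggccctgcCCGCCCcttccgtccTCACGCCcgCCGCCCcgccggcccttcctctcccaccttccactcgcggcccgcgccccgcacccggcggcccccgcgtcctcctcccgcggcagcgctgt
Elovl6: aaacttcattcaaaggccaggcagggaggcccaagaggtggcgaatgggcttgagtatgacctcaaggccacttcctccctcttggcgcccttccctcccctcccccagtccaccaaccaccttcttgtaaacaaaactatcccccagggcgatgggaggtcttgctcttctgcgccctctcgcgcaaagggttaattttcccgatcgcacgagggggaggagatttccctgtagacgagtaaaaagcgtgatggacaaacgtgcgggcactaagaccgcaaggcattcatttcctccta
The window of Cers5 held 3 matches to GGGCGG and 2 to TCACNCC, that of Ugcg 2 and 1, that of Fads2 1 and 0, and that of Elovl6 none to any of the 4. CCAAT and CACGTG were in 0 of these 4 windows. Their GC content was 67.7% for Cers5, 67% for Fads2, 81.3% for Ugcg and 55.7% for Elovl6, against a median of 52.7% over all promoters. Among the 47 promoter entries of 27 members, CCAAT was in 20 (42.6%, beside 37.4% of all 32851 promoters), GGGCGG in 27 (57.4% beside 35.7%), CACGTG in 5 (10.6% beside 7.15%) and TCACNCC in 9 (19.1% beside 15.6%). Entries of 1 gene can overlap, the members and all promoters were not matched for GC content or level of expression, and no test was made. A match is a stretch of letters and not a measured binding site.

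Other genes of the same pathways were read from a longer list, of which 63 of 85 genes were tested. None passed in either direction (0 higher, 0 lower), and 0 had an unadjusted p under 0.05, where 0.818% of all genes did. With the array set as a block 14 of the 63 had an unadjusted p under 0.05, beside 10.1% of all genes and 13.3% of the brighter ones, and none passed (lowest limma adjusted p = 0.380). Without the block means were lower for 37 of the 73 measured and higher for 36, with a median difference of -0.0021. Of the fatty acid genes, the acetyl-CoA synthetase gene Acss2 (0.22 ± 0.15) and Fads3 (0.13 ± 0.12) had the lowest p among those with higher means, and the SREBP retention factor gene Insig1 (-0.27 ± 0.25) and the elongase gene Elovl4 (-0.086 ± 0.079) among those with lower ones. Acss2 read 5.09, 5.40 and 5.09 in deficient and 5.09, 5.15, 4.69 and 4.96 in WT cells, and Insig1, itself a known SREBP target, read 8.02, 7.62 and 7.96 in deficient and 7.69, 7.90, 8.66 and 8.31 in WT cells. The groups overlapped in both genes. Of the phospholipid genes these were the lysophospholipid acyltransferase genes Lpcat2 (0.29 ± 0.20) and Lpcat1 (0.16 ± 0.11), with higher means, and Pgs1 of the cardiolipin route (-0.14 ± 0.12) and Lpin3 (-0.16 ± 0.16), with lower ones. Of the sphingolipid genes they were the ganglioside sialyltransferase gene St3gal5 (0.28 ± 0.16) and the sphingosine kinase gene Sphk1 (0.27 ± 0.18), with higher means, and Kdsr, a reductase of the sphingoid base (-0.19 ± 0.17), and Samd8 (-0.12 ± 0.13), with lower ones. The highest reading of Lpcat2 (4.70) and of Sphk1 (4.98) was that of deficient replicate 2.

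The neighbouring branches of lipid metabolism also held no gene that passed. Of 19 tested cholesterol synthesis genes 12 had lower and 7 higher means in deficient cells (median -0.053), and of 21 fatty acid oxidation genes 15 had lower and 6 higher means (median -0.089). In both lists 0 genes had an unadjusted p under 0.05 without the block. With the array set as a block it was 7 of 19 cholesterol synthesis and 6 of 21 oxidation genes, beside 10.1% of all genes and 13.3% of the brighter ones, and none passed (lowest limma adjusted p = 0.337). In the model with that block, medians were -0.22 for cholesterol synthesis and -0.20 for oxidation, against -0.20 for the fatty acid, -0.033 for the phospholipid and -0.11 for the sphingolipid members, and the brighter genes had a median of -0.065. No test was made of a difference between these lists. Their median differences between the wider and the narrower arrays were 0.72 for cholesterol synthesis and 0.50 for oxidation. Those of the members were 0.53 for fatty acid, 0.081 for phospholipid and 0.34 for sphingolipid genes, beside 0.32 for the brighter genes. Within the wider set the WT arrays had larger interquartile ranges than the deficient arrays. The part of that spread in the blocked medians was not tested. Cholesterol synthesis genes averaged 6.94 to 7.43 on the wider and 6.17 to 6.32 on the narrower arrays, beside 6.92 to 7.38 and 6.45 to 6.58 for the fatty acid members.

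**Figure D4:**
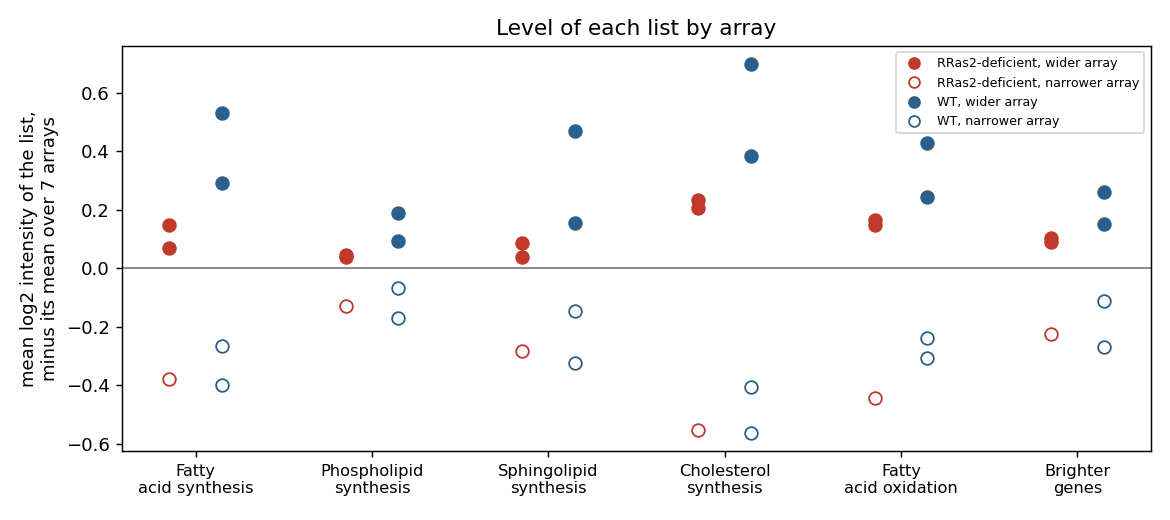
Mean log2 intensity of each gene list on each array, minus its mean over the 7 arrays (y axis), for the 3 classes of members, 2 neighbouring pathways and the brighter genes (x axis). RRas2-deficient arrays in red stand left of WT arrays in blue, and filled points are the wider arrays. In all 6 lists the filled points lie above 0 and the open points below, and WT replicate 3 is the highest.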

How the data were processed

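The values deposited by the authors are log2 intensities, 1 per transcript cluster and array, made with RMA and the package oligo, per the submitters' processing notes; versions and the build are not given in the sources used here. Quantile normalization in RMA acts on single probes, so the spread of the deposited summaries can still differ between arrays, and equal values on several arrays can arise when few probes are summarised. Of 25349 probes, 22225 had 1 gene symbol in the platform annotation, 616 several and 2508 none. The brightest probe of a gene was kept, which gave 21515 genes, of which 5379 with a mean under 3.48 were left out. The test was limma (version 3.58.1, R version 4.3.3) with eBayes defaults, two-sided, as deficient minus WT, with Benjamini-Hochberg adjustment over 16136 genes at a threshold of 0.05. Errors beside differences are limma's moderated standard errors. The 2 array sets lie on either side of the largest step (0.197) between sorted interquartile ranges. No 2 arrays held identical values (highest correlation 0.993). All members are named in the text, with 2 genes per direction of lowest p from each list of other pathway genes, and Rgs13 as the most variable germinal centre marker. The members, lists and alternatives were chosen with earlier results of these data known. All reported intensities and tests come from the 7 deposited arrays, and the code of the limma fit was separately tested on simulated data.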

Additional observations from a re-analysis of the deposited data

Results flagged for a closer look

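In 4 of the 30 measured members 1 WT array lay far from the other 3, by a rule that chance meets in about 1 of 20 groups of 4 distinct values. It was met by 15.2% of the 21515 genes measured, and by 4.60% of those with no equal values among the WT arrays. For Lpin1 and Chpt1 it was met because the other 3 WT values are equal, and 2 of the other WT values of Pcyt2 are equal as well, so that rate does not apply to these 3 genes. Srebf1 read 6.84 in WT replicate 1, against 7.13 to 7.18 in the other WT arrays. Pcyt2 read 8.04 in WT replicate 3, against 7.74 to 7.75. Lpin1 read 4.42 in WT replicate 4, and Chpt1 3.18 in WT replicate 2, where the other 3 WT arrays shared a value of 4.62 for Lpin1 and of 3.15 for Chpt1.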

How the results depend on the processing

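No member passed the test under any of the 18 alternatives, and 7 members (Scd1, Elovl5, Elovl6, Gpam, Lpin1, Chka and Cers6) kept the sign of their difference in all of them. The median over the 30 measured members, -0.065, lay between -0.17 and -0.018 under the other settings. Leaving out 1 array in turn it ran from -0.14 to 0.055, and it was above 0 without RRas2-deficient replicate 2 (0.055) or WT replicate 3 (0.026). Over all genes 2 were called, against 1 with the arrays centred on their medians, 0 on the narrower or the wider arrays alone, and 0 to 2 when 1 array was left out. With the replicate number as a block, which leaves out WT replicate 4, 0 of all genes and 0 members were called. Deviations of same-numbered samples correlated at -0.59, 0.78 and 0.66 for numbers 1 to 3. Deficient replicates 2 and 3 correlated best with the WT sample of their own number, and deficient replicate 1 with WT replicate 3 (0.66). Correlations were positive within an array set and negative across the sets, so they cannot decide whether the numbers pair samples. The sign turned for Acly (0.032), Fasn (0.036), Elovl1 (0.093) and Cers5 (0.023) with that replicate block, for Fads1 (-0.22), Me1 (0.0040), Agpat1 (-0.013) and Agpat3 (-0.012) with the array set as a block, and for Fasn (0.0079) and Sptlc1 (0.0089) with the interquartile range as a covariate. It turned for Elovl1 (0.027), Fads2 (0.10), Srebf1 (-0.16), Pcyt2 (0.044), Pisd (0.085) and Ugcg (-0.0043) on the narrower arrays alone, where the lone deficient array is assumed to vary like the others, and for Fads1 (-0.48), Me1 (0.010), Agpat1 (-0.17), Agpat3 (-0.046), Chpt1 (-0.019), Degs1 (-0.022), Sgms1 (-0.0038) and Sgms2 (0.013) on the wider arrays alone. It also turned for Cers2 (0.025) with the mean over probes, Fasn (0.013) with a further quantile normalization and Chpt1 (-0.0014) with the arrays centred. With 1 array left out in turn, the sign turned at least once for Acly (-0.24 to 0.11), Acaca (-0.16 to 0.082), Fasn (-0.12 to 0.077), Elovl1 (-0.25 to 0.093), Fads1 (-0.34 to 0.44), Fads2 (-0.46 to 0.30), Srebf1 (-0.080 to 0.23), Me1 (-0.059 to 0.029), Agpat1 (-0.046 to 0.20), Agpat3 (-0.023 to 0.15), Chpt1 (-0.025 to 0.054), Ptdss1 (-0.62 to 0.097), Sptlc1 (-0.26 to 0.11), Sptlc2 (-0.37 to 0.020), Cers5 (-0.47 to 0.17), Ugcg (-0.023 to 0.60), Sgms1 (-0.0038 to 0.053) and Sgms2 (-0.15 to 0.0084). The causes were not tested. The wide intervals of members that follow the array sets limit what 7 arrays can show.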
